A study of Rattus norvegicus with 36 samples.

Results

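Ribosome biogenesis genes encode the proteins of the nucleolus and the assembly factors that turn ribosomal RNA and ribosomal proteins into ribosomal subunits. Here 44 such genes were followed in the liver of rats given TBBPA-DBPE, a brominated flame retardant whose full name is tetrabromobisphenol A-bis(2,3-dibromopropyl ether). Members were taken as the probe sets whose platform annotation names exactly 1 gene, that gene being on the list. This gave 59 of the 31042 probe sets tested and 43 of the 14217 genes that a single-gene probe set represents. Npm1, which encodes nucleophosmin, is on the list but has no probe set that names it alone, so it has no value. A gene with several probe sets is given by the one with the highest mean over all arrays.

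The samples were livers of male Harlan Sprague Dawley rats, 7 weeks old at the start, gavaged on each of 5 consecutive days, with necropsy following the final dose by 1 day. One group received corn oil alone (vehicle, 0 mg/kg). The others received TBBPA-DBPE in corn oil, the 3 low doses being 0.1 mg/kg, 0.94 mg/kg and 9.4 mg/kg and the 2 high doses 94.3 mg/kg and 943 mg/kg. Each of the 6 groups held 6 arrays, each treated as 1 animal. All animals, controls too, shared the corn oil and the gavage. RNA came from pooled cells of the left lobe, so fewer cells of a type and less RNA per cell cannot be told apart. All 11 measured hepatocyte markers, albumin (Alb) among them, had mean log2 signals from 8.91 to 14.4, beside the array medians of 4.59 to 4.66, and none lay below any array median. The correlation between any 2 arrays lay between 0.989 and 0.997.

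The list was selected from earlier results on these same arrays. When replicate 1 at 94.3 mg/kg was left out, 11 probe sets (0.0354% of those tested) passed limma at that dose against vehicle, and 2 of them belonged to the members Wdr12 and Rrp12. Members were therefore picked on values of the contrast between 94.3 mg/kg and vehicle, which is described below without a test. The other 4 doses were tested against the same 6 vehicle arrays. Their differences share those arrays and are independent neither of one another nor of the contrast on which members were picked.

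As background, RNA polymerase I transcribes the ribosomal RNA precursor in the nucleolus. Small nucleolar ribonucleoproteins (snoRNPs) guide its chemical modification, box C/D particles by methylation and box H/ACA particles by pseudouridylation. Separate sets of factors then cleave the precursor and assemble the small and the large subunit. In liver this programme is known to respond to feeding, to growth and to regeneration, and the transcription factor MYC is a known activator of many of its genes.

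The 43 genes as a group were highest in the livers at 94.3 mg/kg. The mean log2 value of the 43 genes in a vehicle animal was at lowest 6.73, at median 6.89 and at highest 6.97. In the 94.3 mg/kg group these 3 values were 6.87, 7.07 and 7.20, and 5 of 6 animals lay above the highest vehicle animal. Replicate 1 was the animal within the vehicle range, and replicate 5 was the highest.

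The other groups lay inside or close to the vehicle range. At 0.1 mg/kg the lowest, median and highest means were 6.83, 6.99 and 7.03, with 3 animals above the vehicle range. The means were 6.84, 6.93 and 7.00 at 0.94 mg/kg and 6.79, 6.91 and 6.99 at 9.4 mg/kg, with 2 animals above the range at either dose. At 943 mg/kg, the highest dose, they were 6.82, 6.86 and 6.93, and no animal left the vehicle range. The group that lay highest was not the group with the highest dose. Members were picked on the contrast of the group that lay highest with vehicle, so no shape over dose is read from this.

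**Figure D1:**
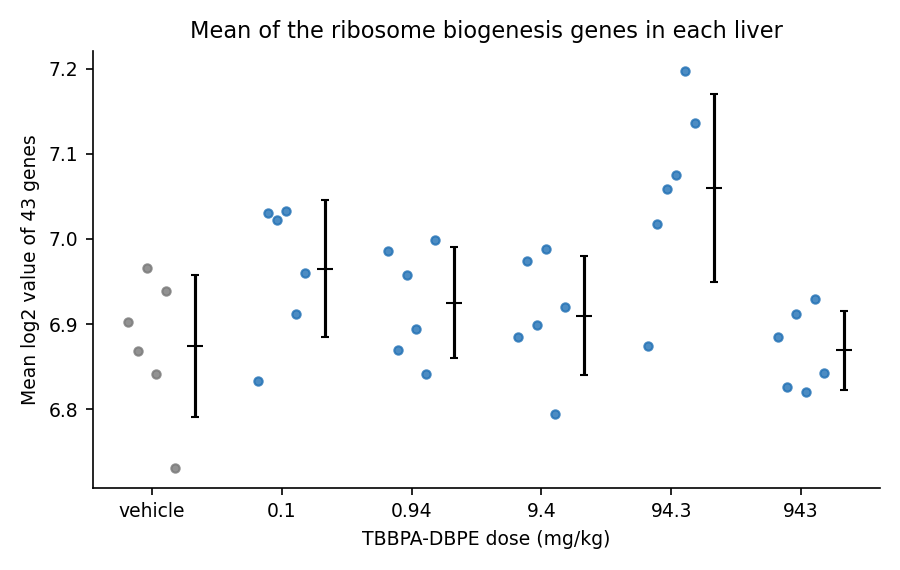
Mean log2 value of the 43 genes (vertical axis) in each of 36 livers by dose in mg/kg (horizontal axis). Points are animals, and the bar beside them is the group mean with its SD (n = 6). At 94.3 mg/kg, 5 of 6 animals lie above the highest vehicle animal, while at 943 mg/kg none does.

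No member passed the test at any dose that was tested. In limma with Benjamini-Hochberg adjustment over all 31042 probe sets, 0 of 43 members had an adjusted p under the threshold of 0.05 at 0.1, 0.94, 9.4 and 943 mg/kg, and 0% of all probe sets did so in each of these comparisons. The smallest adjusted p of a member was 0.829, 0.999, 0.980 and 0.865 in that order. At an unadjusted p under 0.05 there were 8, 4, 5 and 1 of the 43 members, beside 5.42%, 4.02%, 4.59% and 5.81% of all genes. All 8 members at 0.1 mg/kg were higher than vehicle, as were 3 of the 4 at 0.94 mg/kg, 3 of the 5 at 9.4 mg/kg and 0 of the 1 at 943 mg/kg. Among all genes 430 of 771, 321 of 572, 360 of 653 and 456 of 826 were higher. Members varied together between animals, so such counts are not made of independent results. The 95% interval of the difference stayed within 1.5-fold in either direction for 41 members at 0.1 mg/kg and for all 43 at 0.94, 9.4 and 943 mg/kg, much as for all genes (97.8%, 97.7%, 97.2% and 97.5% in that order).

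Counted by direction, 36 of 43 members had a group mean above vehicle in the 0.1 mg/kg group. The count was 34 for 0.94 mg/kg, 28 for 9.4 mg/kg, 43 for 94.3 mg/kg and 19 for 943 mg/kg. Among all genes these shares were 50.6%, 51.4%, 51.2%, 52.5% and 50.8%. The median log2 difference of the members was 0.10, 0.05, 0.04, 0.17 and -0.02 in the same order, and the median over all genes lay between 0.0014 and 0.0053 at every dose. In ascending order of dose, 4, 2, 1, 12 and 0 members had 4 or more of 6 animals above the highest vehicle animal, where 3.34%, 2.9%, 2.76%, 4.34% and 3.94% of all genes did. The values at 94.3 mg/kg are those by which the list was picked, so nothing is read from the counts at that dose. The vehicle arrays were part of that choice too, so the counts at the other doses are not free of it.

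Without vehicle replicate 6, the vehicle animal with the lowest member mean, 23 members in place of 34 lay above vehicle at 0.94 mg/kg and the median difference was 0.0066. Without replicate 4 at 9.4 mg/kg that dose had a median of 0.0065, with 26 members in place of 28 above vehicle. Leaving out replicate 4 at 943 mg/kg turned that median to 0.00079, and leaving out vehicle replicate 6 made it -0.04. The medians at these 3 doses thus moved with single animals, and the one at 943 mg/kg changed sign. Each move was smaller than the SD of the member mean between animals of a group (0.079). Without replicate 2 at 0.1 mg/kg, 31 members in place of 36 lay above vehicle there and the median was 0.07. The dose by which the list was picked, 94.3 mg/kg, is not set against these doses.

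**Figure D2:**
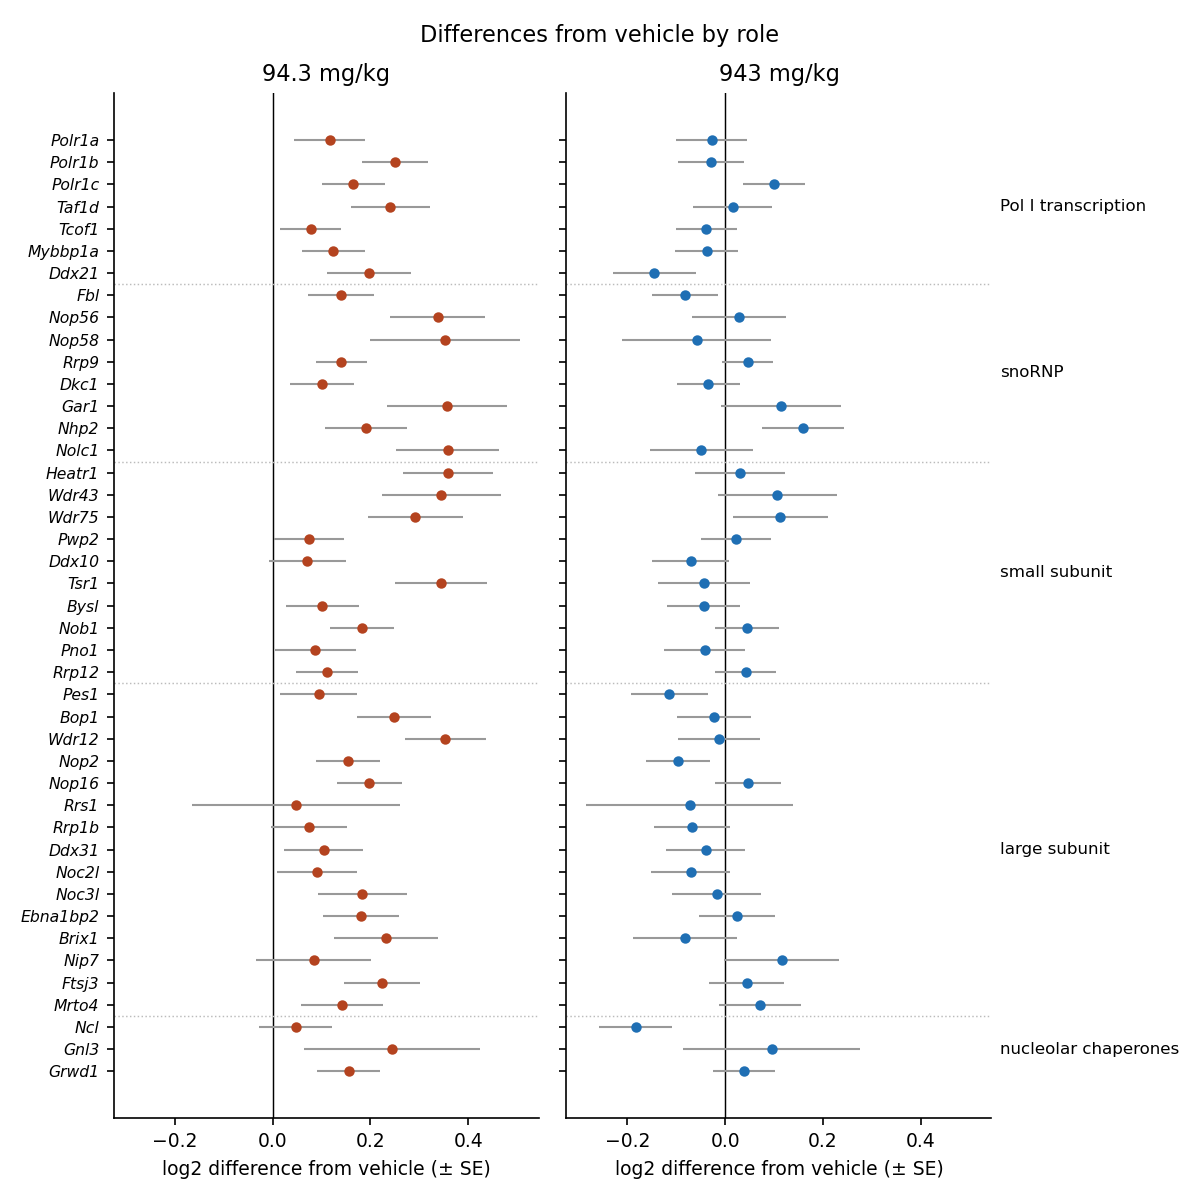
Log2 difference from vehicle (horizontal axis, with the SE of the limma fit, n = 6 per group) for the 43 genes (vertical axis) grouped by role, at 94.3 mg/kg (left) and 943 mg/kg (right). All 43 points lie to the right of 0 on the left, and 19 do so on the right.

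The polymerase I group held Polr1a and Polr1b, the large subunits of the enzyme, Polr1c, a subunit shared with RNA polymerase III, Taf1d, a subunit of the selectivity factor that recruits the polymerase, Tcof1, the treacle protein that links transcription to precursor modification, Mybbp1a, a nucleolar repressor of that transcription, and Ddx21, an RNA helicase. All 7 lay above vehicle at 94.3 mg/kg, with a median log2 difference of 0.17. Polr1b was at 6.12, 6.26 and 6.38 in vehicle as lowest, median and highest log2 value and at 6.28, 6.47 and 6.72 at 94.3 mg/kg, where 5 of 6 animals lay above the vehicle range. Its difference was 0.25 ± 0.068 (SE, n = 6), or 1.19-fold. Polr1b at 943 mg/kg was at 6.16, 6.20 and 6.32, inside the vehicle range.

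Taf1d was among the 3 members with the smallest p at each of the 3 low doses. Its lowest, median and highest log2 values were 5.51, 5.75 and 5.89 in vehicle, 5.90, 5.97 and 6.11 at 0.1 mg/kg and 5.87, 6.09 and 6.20 at 0.94 mg/kg. All 6 animals at 0.1 mg/kg and 5 of 6 at 0.94 mg/kg lay above the highest vehicle animal. At 0.1 mg/kg Taf1d was the only member with all 6 animals above, which held for 0.155% of all genes. The differences were 0.23 ± 0.080 at 0.1 mg/kg (limma adjusted p = 0.829), 0.32 ± 0.080 at 0.94 mg/kg (limma adjusted p = 0.999) and 0.19 ± 0.080 at 9.4 mg/kg (limma adjusted p = 0.980), so none passed. At 943 mg/kg Taf1d was at 5.57, 5.76 and 5.95 and differed by 0.02, with 2 animals above the vehicle range. A second probe set of Taf1d differed by -0.02, -0.06 and -0.03 (SE 0.090) at the 3 low doses, opposite in sign to the first. Its vehicle mean of 1.94 lay far below the array medians, so little can be read from it.

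Polr1c was at 7.21, 7.46 and 7.61 in vehicle and 7.42, 7.62 and 7.69 at 0.1 mg/kg, with 4 of 6 animals past the highest vehicle value. The difference of 0.15 ± 0.064 did not pass (limma adjusted p = 0.855). Ddx21 had its lowest values at 943 mg/kg, at 7.84, 8.08 and 8.27 beside 7.93, 8.20 and 8.36 in vehicle, and these ranges overlapped. Its difference there was -0.14 ± 0.086 (limma adjusted p = 0.868), and that of its other probe set was -0.02. Polr1a, Mybbp1a and Tcof1 differed by 0.12, 0.12 and 0.08 at 94.3 mg/kg and by -0.03, -0.04 and -0.04 at 943 mg/kg. The 3 probe sets of Tcof1 differed by 0.08, -0.01 and 0.05 at 94.3 mg/kg and so disagreed in sign, though the -0.01 had an SE of 0.10.

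The snoRNP group held the box C/D proteins Fbl, the RNA methyltransferase fibrillarin, Nop56 and Nop58, the processing factor Rrp9, the box H/ACA proteins Dkc1, the pseudouridine synthase dyskerin, Gar1 and Nhp2, and Nolc1, a nucleolar phosphoprotein that binds both kinds of particle. All 8 lay above vehicle at 94.3 mg/kg with a median log2 difference of 0.26, and 4 of 8 did so at 943 mg/kg with a median of -0.0030. Nop56 was at 7.93, 8.15 and 8.30 in vehicle and at 8.03, 8.57 and 8.69 at 94.3 mg/kg. There 5 of 6 animals lay above the vehicle range and replicate 1 lay within it. Its difference was 0.34 ± 0.096, or 1.26-fold, and its other probe set differed by 0.29.

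Nop56 also had 5 of 6 animals above the vehicle range at 0.1 mg/kg, where it was at 8.03, 8.37 and 8.58, while replicate 1 was the lowest animal in that group too. Nolc1 was at 6.06, 6.36 and 6.60 in vehicle and at 6.25, 6.74 and 7.20 at 94.3 mg/kg, a difference of 0.36 ± 0.11 with 5 of 6 animals above the range. Its 3 other probe sets differed by 0.15, 0.14 and 0.07, less than 0.36 but in the same direction. The one at 0.07 (SE 0.075) had a vehicle mean of 2.72, below the array medians, so little can be read from it. Gar1, Nop58, Nhp2, Fbl, Rrp9 and Dkc1 differed by 0.36, 0.35, 0.19, 0.14, 0.14 and 0.10 at that dose.

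Nhp2 had a positive mean difference at every dose, but the 0.10 at 9.4 mg/kg leaned on replicate 4. That animal was at 8.58, with the next at 8.07 and the group median at 7.96. The lowest, median and highest values of Nhp2 were 7.89, 7.92 and 8.06 in vehicle and 8.04, 8.12 and 8.34 at 0.94 mg/kg, with 5 of 6 animals past the highest vehicle value. They were 8.03, 8.09 and 8.22 at 943 mg/kg, with 3 of 6 animals above the range. The differences of 0.21 ± 0.084 at 0.94 mg/kg (limma adjusted p = 0.999) and 0.16 ± 0.084 at 943 mg/kg (limma adjusted p = 0.868) did not pass. Rrp9 had the smallest spread between animals of a group among the members, with a residual SD of 0.0799.

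The small subunit group held the early processome proteins Heatr1, Wdr43, Wdr75, Pwp2 and the helicase Ddx10, and the later factors Tsr1, Bysl, Pno1, Rrp12 and Nob1, the nuclease that makes the final cut of the small subunit RNA. All 10 lay above vehicle at 94.3 mg/kg with a median difference of 0.15, and 6 of 10 did so at 943 mg/kg with a median of 0.03. Heatr1 was at 5.36, 5.61 and 5.86 in vehicle and 5.63, 5.86 and 6.30 at 94.3 mg/kg. Its difference was 0.36 ± 0.092, or 1.28-fold, and 3 of 6 animals lay above the vehicle range, so the groups overlapped. Heatr1 at 943 mg/kg was at 5.48, 5.63 and 5.70 and differed by 0.03.

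Tsr1, a maturation factor of the small subunit precursor, was at 7.75, 7.97 and 8.28 in vehicle and 7.91, 8.39 and 8.58 at 94.3 mg/kg, a difference of 0.34 ± 0.094. Tsr1 at 943 mg/kg was at 7.85, 7.94 and 8.06 and differed by -0.04. In both Heatr1 and Tsr1, replicate 1 was the lowest and replicate 5 the highest animal at 94.3 mg/kg. Wdr43, Wdr75, Nob1, Rrp12, Bysl, Pno1, Pwp2 and Ddx10 differed by 0.34, 0.29, 0.18, 0.11, 0.10, 0.09, 0.07 and 0.07 at that dose. The 3 probe sets of Rrp12 differed by 0.11, 0.32 and 0.23, and the one that had been past the threshold without replicate 1 was the probe set at 0.32.

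Wdr75 was the small subunit gene with the smallest p at 9.4 mg/kg. It was at 5.38, 5.59 and 5.92 in vehicle and 5.70, 5.80 and 6.19 at 9.4 mg/kg, with 2 of 6 animals past the highest vehicle value. The difference of 0.28 ± 0.097 did not pass (limma adjusted p = 0.980), and the other probe set of Wdr75 differed by -0.24, in the opposite direction. Nob1 was at 7.11, 7.36 and 7.61 in vehicle and 7.33, 7.54 and 7.67 at 0.1 mg/kg, with 1 of 6 animals above the range. Its difference was 0.18 ± 0.066 (limma adjusted p = 0.841).

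The large subunit group held Pes1, Bop1 and Wdr12, which form the PeBoW complex needed for the maturation of large subunit RNA, the RNA methyltransferase Nop2, the helicase Ddx31, the export-linked factors Noc2l and Noc3l, and Nop16, Rrs1, Rrp1b, Ebna1bp2, Brix1, Nip7, Ftsj3 and Mrto4, assembly factors known mainly from yeast. All 15 lay above vehicle at 94.3 mg/kg with a median difference of 0.15, and 5 of 15 did so at 943 mg/kg with a median of -0.02. The 3 proteins of PeBoW work together, and the differences of their genes from vehicle were not tested against one another. Wdr12 was among the members that had passed without replicate 1. Wdr12 was at 6.18, 6.54 and 6.74 in vehicle and 6.53, 6.93 and 7.08 at 94.3 mg/kg, with 5 of 6 animals above the vehicle range and a difference of 0.35 ± 0.084, or 1.28-fold. Bop1 was at 6.66, 6.91 and 6.99 in vehicle and 7.05, 7.10 and 7.20 at 94.3 mg/kg, and was the only member whose 6 animals at that dose all lay above the vehicle range, which held for 0.274% of all genes. Its difference was 0.25 ± 0.076. Pes1 differed by 0.09 ± 0.079 with 1 animal above the range. At 943 mg/kg the 3 genes differed by -0.01 (Wdr12), -0.02 (Bop1) and -0.11 (Pes1).

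Ddx31 was the only member with all 6 animals of a dose below the vehicle range. Its lowest, median and highest values were 5.14, 5.19 and 5.51 in vehicle, 4.93, 5.11 and 5.16 at 0.94 mg/kg, and 4.67, 4.96 and 5.12 at 9.4 mg/kg. All 6 animals at 9.4 mg/kg lay below the lowest vehicle animal, which held for 0.0844% of all genes, and 5 of 6 did so at 0.94 mg/kg. The differences of -0.31 ± 0.081 at 9.4 mg/kg (limma adjusted p = 0.980) and -0.18 ± 0.081 at 0.94 mg/kg (limma adjusted p = 0.999) did not pass. Ddx31 at 94.3 mg/kg was at 5.06, 5.39 and 5.56, and 1 animal lay above and 1 below the vehicle range.

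Brix1, Ftsj3, Nop16, Noc3l, Ebna1bp2, Nop2, Mrto4, Noc2l, Nip7, Rrp1b and Rrs1 differed by 0.23, 0.22, 0.20, 0.18, 0.18, 0.15, 0.14, 0.09, 0.08, 0.07 and 0.05 at 94.3 mg/kg. The 3 probe sets of Rrp1b differed by 0.07, 0.14 and -0.09 and so disagreed in sign. Noc3l had a mean log2 signal of 2.84, below the median of every array, so the size of its difference is uncertain. The other 42 members lay above the median of every array. Rrs1 had the largest spread between animals of a group, with a residual SD of 0.395 and values from 6.99 to 7.88 in vehicle and from 6.87 to 8.24 at 9.4 mg/kg.

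The group of nucleolar chaperones and related proteins held Ncl (nucleolin, an abundant RNA-binding protein of the nucleolus), Gnl3 (the GTPase nucleostemin) and Grwd1 (a histone-binding assembly factor). They differed by 0.05, 0.24 and 0.16 at 94.3 mg/kg. Ncl was the member with the smallest p at 943 mg/kg, and there it was lower than in vehicle. It was at 9.86, 9.98 and 10.05 in vehicle and 9.60, 9.74 and 10.09 at 943 mg/kg, with 4 of 6 animals below the vehicle range and 1 above. The difference of -0.18 ± 0.074 did not pass (limma adjusted p = 0.865). It was the 1 member at that dose with an unadjusted p under 0.05.

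**Figure D3:**
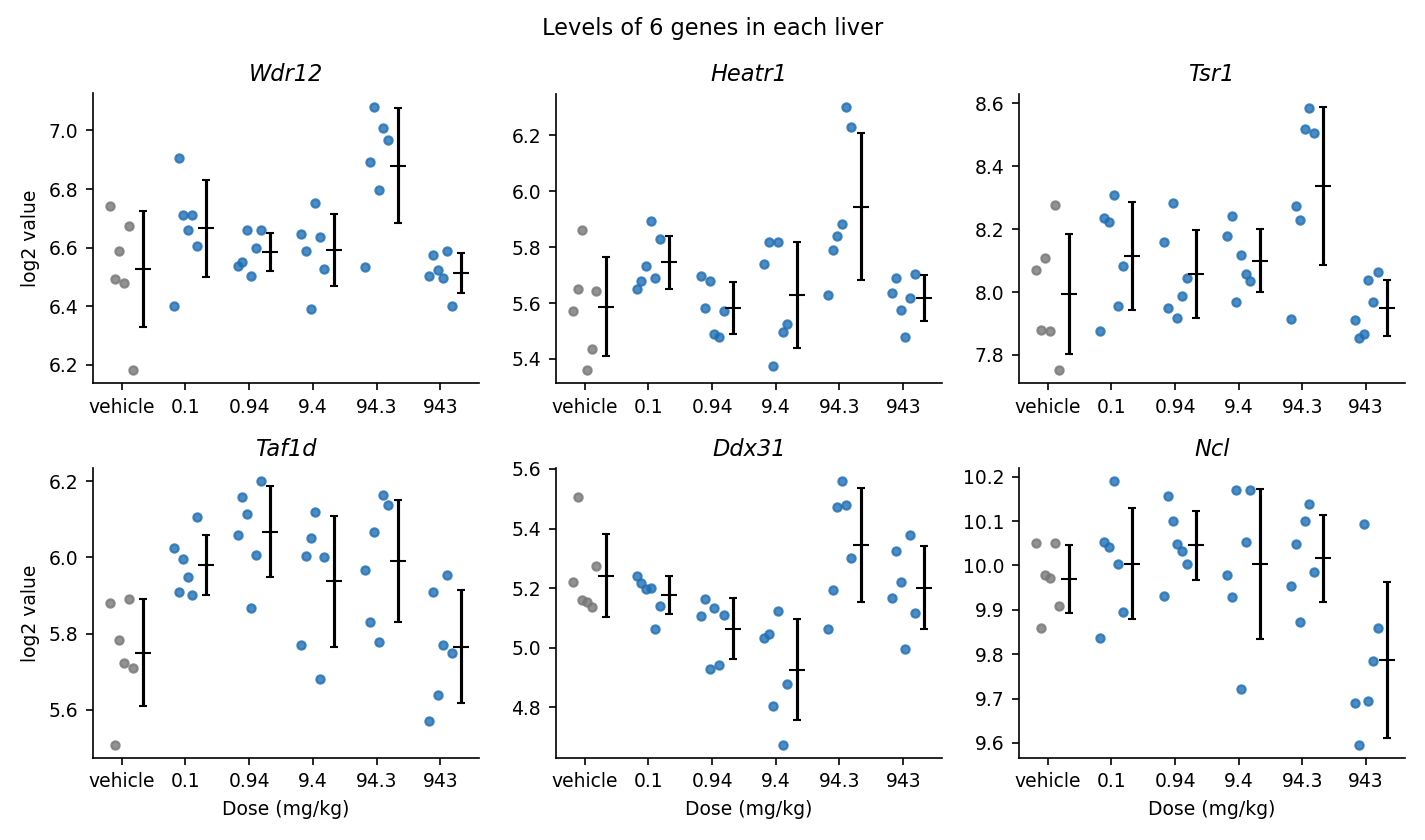
Log2 values of 6 genes (vertical axes, own scale per gene) in each liver by dose in mg/kg (horizontal axes), with the group mean and SD (n = 6) beside the points. Wdr12, Heatr1 and Tsr1 have their highest animals at 94.3 mg/kg. Taf1d has group means above the vehicle mean from 0.1 to 94.3 mg/kg, with animals inside the vehicle range at 9.4 and 94.3 mg/kg. Ddx31 has all 6 animals at 9.4 mg/kg below the vehicle range, and Ncl has 4 of 6 animals at 943 mg/kg below it.

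A slope over the rank of the dose was fitted to the 30 arrays other than those at 94.3 mg/kg. No member passed (0 of 43, and 0% of all probe sets, limma adjusted p under 0.05). The 3 members with the smallest p all had negative slopes. Ncl had -0.0365 ± 0.0150 log2 units per dose rank, Nop2 -0.0231 ± 0.0117 and Ddx21 -0.0267 ± 0.0150, each with a limma adjusted p of 0.934. Nop2 was at 6.77, 6.96 and 7.10 in vehicle and 6.75, 6.82 and 7.00 at 943 mg/kg, with 1 animal below the vehicle range.

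Between the 2 highest doses, 42 of 43 members were lower at 943 than at 94.3 mg/kg, with a median difference of -0.16, beside 50.4% of all genes and a median of -0.00077. Nip7 was the exception, at 0.03. For Fbl and Bop1 all 6 animals at 943 mg/kg lay below all 6 at 94.3 mg/kg, which held for 0.253% of all genes. Fbl was at 8.31, 8.34 and 8.46 at 94.3 mg/kg and at 8.00, 8.14 and 8.29 at 943 mg/kg. The arrays at 94.3 mg/kg are those by which the list was picked, so this comparison is given without a test.

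The rest of the pathway was read in 103 further genes that act at the same steps and are not on the list. At 94.3 mg/kg, 91 of them (88.3%) lay above vehicle, with a median log2 difference of 0.09. Among all genes 52.5% did so, with a median of 0.0053. These values come from the same arrays by which the list was picked, so they are no independent check of the members. By role these were 10 of 10 polymerase I genes, 6 of 6 snoRNP genes, 35 of 42 small subunit genes and 40 of 45 large subunit genes. At the upper end were Gtpbp4, a GTPase of large subunit assembly, at 0.37 ± 0.16 and the small subunit helicase Ddx52 at 0.34 ± 0.15, with 3 and 4 of 6 animals above the vehicle range. At the lower end were Ngdn, a small subunit processome protein, at -0.07, and Nvl, an ATPase of large subunit assembly, at -0.14.

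None of the 103 passed limma in either direction at 0.1, 0.94, 9.4 or 943 mg/kg. Those above vehicle numbered 76, 55, 58 and 37 at these 4 doses, with median differences of 0.04, 0.0045, 0.01 and -0.03. Among all genes the shares above vehicle were 50.6%, 51.4%, 51.2% and 50.8%. The largest at 0.1 mg/kg was that of Nifk, a nucleolar protein that binds the proliferation antigen Ki-67, at 0.27 ± 0.089 (limma adjusted p = 0.823). At 943 mg/kg Utp20, a small subunit processome protein, was lowest at -0.25 ± 0.12 (limma adjusted p = 0.865).

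Members also varied together between animals of the same dose. After each group mean had been subtracted, the median Pearson r over the 903 pairs of members was 0.24 across 36 animals, with an interquartile range from 0.07 to 0.41. Over all pairs of genes the median was 0.0018, with an interquartile range from -0.14 to 0.15. An r over 0.5 was reached by 14.4% of the member pairs and 0.965% of all pairs. Values of 1 array share its RNA, its labelling and its normalization, and the members were chosen with results of these arrays known, so these figures are a description.

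The closest pairs were Nolc1 with Tsr1 (r = 0.83, rho = 0.77), Nop56 with Tsr1 (r = 0.83, rho = 0.78) and Nhp2 with Mrto4 (r = 0.80, rho = 0.69). Pairs with the same role had a median r of 0.26 and pairs with different roles 0.23. Against the mean of the other 42 members, Gar1 had an r of 0.88, Nop56 0.82, Nolc1 0.76 and Tsr1 0.76. At the other end were Polr1a at 0.07, Tcof1 at 0.16 and Ncl at 0.17. Rrs1 and Gnl3 went together (r = 0.76, rho = 0.74). The lowest r of the 903 member pairs were those of Pes1 with Rrs1 (-0.42) and with Gnl3 (-0.40). Values from -0.45 to -0.40 made up 0.11% of the member pairs and 1.16% of all pairs of genes. An extreme of many pairs is therefore not read as opposition.

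**Figure D4:**
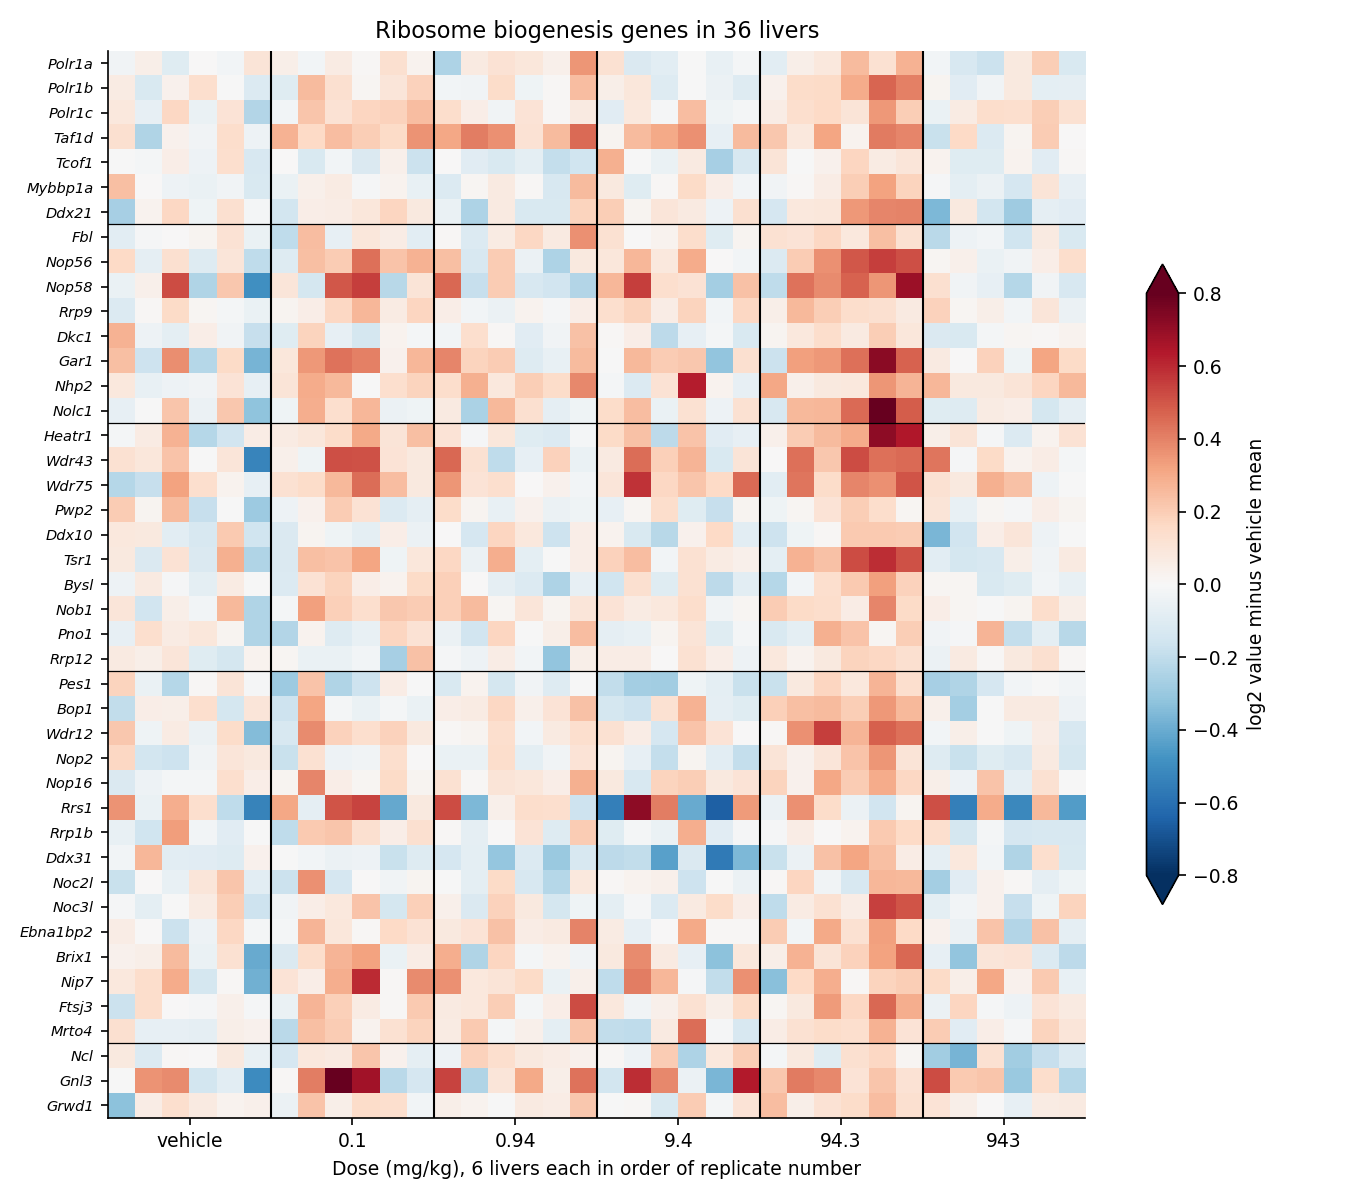
Log2 value minus the vehicle mean of each gene (colour, red for higher and blue for lower) for 43 genes (rows, grouped by role) in 36 livers (columns, by dose in mg/kg). Red is most frequent at 94.3 mg/kg, where all 43 group means lie above vehicle.

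**Figure D5:**
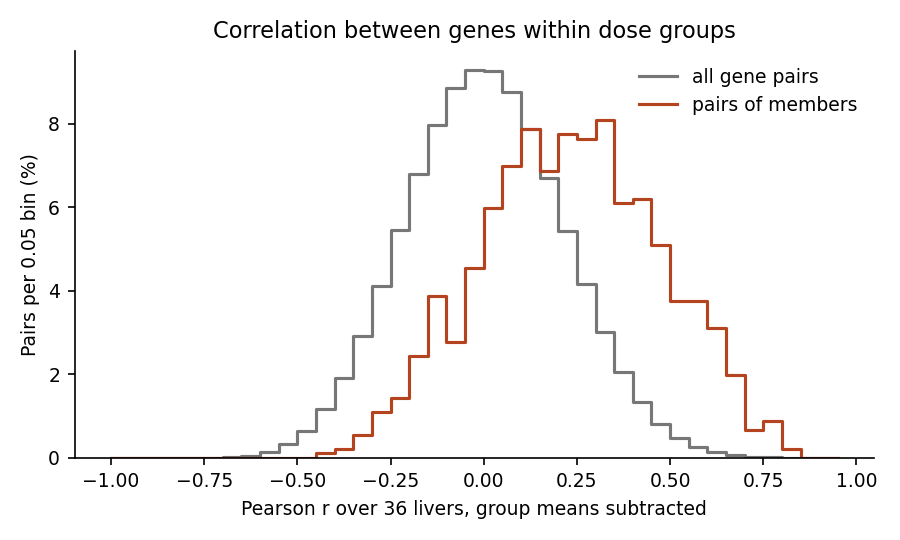
Share of gene pairs (vertical axis, percent per bin of 0.05) by Pearson r over 36 livers after subtraction of group means (horizontal axis). The 903 pairs of members have a median of 0.24, and all gene pairs a median of 0.0018.

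Among the 14174 genes outside the list, the 10 whose values ran most closely with the mean of the members, by Pearson r after subtraction of group means over 36 animals, were headed by Max, the dimerization partner of MYC (r = 0.86, rho = 0.81). Next came the co-chaperone Dnaja2 (0.86), the tRNA methyltransferase subunit Trmt61a (0.85), the respiratory complex assembly factor Ndufaf4 (0.85), Eef1e1 of the multi-tRNA synthetase complex (0.84) and Kti12, a tRNA modification factor known from yeast (0.81). Wdr77, a partner of an arginine methyltransferase, was at 0.78, the small subunit processome protein Utp25 at 0.78, the mitochondrial RNA processing protein Fastkd5 at 0.77 and the nucleolar protein Cebpz at 0.77. By the member mean, the animals farthest from their own group mean were replicate 1 at 94.3 mg/kg and vehicle replicate 6, and without both the r of these 10 genes lay between 0.65 and 0.81. Among the 103 other pathway genes the median r with the member mean was 0.40, and 22 of them were among the 100 closest genes. The other 14071 genes had a median r of 0.0013, and 78 of them were among the 100 closest.

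Myc itself did not run with the members, with an r of -0.04 and a rho of -0.05. Its differences from vehicle were 0.52, 0.49, -0.04, 0.05 and -0.29 in ascending order of dose, and none of the 9 measured genes of the MYC network passed at a tested dose (smallest limma adjusted p = 0.892). Max differed by 0.06, 0.01, 0.06, 0.18 and 0.04 in the same order.

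Since the members varied together, their promoters were read for the E-box, the letters to which MYC and MAX bind. RefSeq promoters on the build GRCr8 were matched for 40 of the 43 genes. The E-box CACGTG, which reads the same on both strands, lay within 250 bases before the start in 5 of the 40 (12.5%) and in 7.85% of 11701 promoters of genes on the array. The 5 stretches are shown 5′ to 3′ on the strand of the gene with the E-box in capitals, and are shown because Max headed the genes that ran with the members.
Mybbp1a: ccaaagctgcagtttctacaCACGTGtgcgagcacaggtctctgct
Dkc1: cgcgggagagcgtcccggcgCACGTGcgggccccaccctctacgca
Wdr75: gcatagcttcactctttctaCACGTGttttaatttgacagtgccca
Pes1: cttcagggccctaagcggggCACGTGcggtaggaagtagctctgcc
Gnl3: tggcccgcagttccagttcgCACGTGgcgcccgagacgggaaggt

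They lie at chr10:57555282-57555327 (plus strand), chrX:157751447-157751492 (plus), chr9:55395052-55395097 (plus), chr14:83074276-83074321 (plus) and chr16:6219783-6219827 (minus) in the same order. The first base of the E-box was 156, 184, 160, 50 and 25 bases before the start. None of the 6 genes with the largest ratio of difference to error at 94.3 mg/kg (Wdr12, Heatr1, Polr1b, Tsr1, Nop56 and Nolc1) had these letters in the window, which says nothing of MAX or MYC at those genes.

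A second motif, chosen after the design had been fixed, was the core of the site of ETS factors, CCGGAAG on either strand (CTTCCGG when read from the other). It was present in 14 of the 40 promoters (35%) and in 12.9% of the 11701. It overlapped no E-box in these promoters. The median GC content of the windows was 56.6% in the members and 59.2% in all. A GC box, GGGCGG on either strand, was present in 62.5% and 54.2%. Of the genes named above for the largest ratio of difference to error at 94.3 mg/kg, Nolc1 alone had the ETS core. Promoters with the ETS core are shown for 4 genes of the snoRNP group, the role with the highest median difference at 94.3 mg/kg, with the core in capitals. Dkc1 and Nhp2 of that group also held the core and are not shown. In Gar1 a second core, on the other strand, overlaps the one in capitals and runs on into the lower case letters. Nop58 held another core, not shown, whose first base was 140 bases before the start.
Fbl: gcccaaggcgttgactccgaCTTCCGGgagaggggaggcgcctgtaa
Nop58: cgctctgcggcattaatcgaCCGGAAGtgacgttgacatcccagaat
Gar1: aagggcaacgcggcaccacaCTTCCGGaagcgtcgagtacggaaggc
Nolc1: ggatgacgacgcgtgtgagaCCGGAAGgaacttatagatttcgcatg

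These stretches lie at chr1:92597321-92597367 (plus strand), chr9:68614979-68615025 (plus), chr2:221056776-221056822 (minus) and chr1:254870198-254870244 (plus). A match of letters is a description and not a site of binding.

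Other cell types were read from marker lists, and their part in the differences was not tested. At 94.3 mg/kg, 7 of 8 Kupffer cell and macrophage markers lay above vehicle (median 0.07), as did 10 of 10 proliferation genes (median 0.07). The list mean of the macrophage markers ran from 7.67 to 8.45 in vehicle and from 7.82 to 8.40 at 94.3 mg/kg, and that of the proliferation genes from 4.70 to 5.38 and from 4.79 to 5.25, so no animal left the vehicle range. Of the 6 endothelial markers 4 were lower than vehicle (median -0.07), and their list mean ran from 7.62 to 7.72 in vehicle and from 7.56 to 7.76 at 94.3 mg/kg, with 4 of 6 animals below the vehicle range and 1 above. Stellate cell and fibroblast markers were lower for 6 of 8 (median -0.06), with list means from 5.92 to 6.89 in vehicle and from 5.75 to 6.48 at 94.3 mg/kg and 1 animal below the range. At 0.1 and 0.94 mg/kg, where 36 and 34 members lay above vehicle, 0 of 8 macrophage markers did, and at 9.4 mg/kg 8 of 8 did. Proliferation genes above vehicle numbered 8, 2, 10 and 8 of 10 at 0.1, 0.94, 9.4 and 943 mg/kg. Their medians were 0.02, -0.06, 0.16 and 0.06 in that order. The list mean of the 11 hepatocyte markers ran from 12.62 to 12.80 in vehicle and from 12.69 to 12.80 at 94.3 mg/kg, where 1 animal lay above the vehicle range. Of the 4 measured neutrophil markers 2 lay below the median of every array, and of 8 lymphocyte markers 2 did.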

How the data were processed

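Single-colour Affymetrix rat expression arrays were read as deposited log2 values per probe set, which the authors computed by RMA (affy is the package listed), per the submitters' processing notes, without versions. The 57 control probe sets were left out and the other 31042 were tested with no filter on signal. Genes were named from the platform table, and promoter sequences came from RefSeq.

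In R 4.3.3, limma 3.58.1 (lmFit, eBayes) fitted the 6 group means over all 36 arrays, and each dose was compared with vehicle. Tests were two-sided, with Benjamini-Hochberg adjustment over all probe sets. SE and 95% intervals come from that model, and the number of arrays limits the precision. The authors' own test, R/maanova per the series' design text, was not used. The fit was tested on simulated data. No batch or scan date was given for the arrays in the sources used here.

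The members and lists were chosen with earlier results of these data known. Named members were the 6 with the largest statistic at 94.3 mg/kg, the 3 with the smallest p in each other test, those with the extreme mean and spread, and, for other genes, the 10 closest by correlation, Myc, and pathway genes at the ends of the range. Bop1 and Fbl were added after their values were seen. Alternatives were a filter on dim probe sets, a variance trend, weights per array, a block for the replicate number, renormalization, centring, no moderation, fits of 2 groups, all probe sets of a gene, a log10 dose score and leaving out each animal. Samples with the same replicate number were also checked for shared deviations.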

Additional observations from a re-analysis of the deposited data

Results flagged for a closer look

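In 114 sets of 6 values (the member mean and 18 members in 6 groups), 4 had 1 animal far from the other 5, and chance gives about 1 in 20. Ddx31 was at 5.51 in vehicle replicate 2, with the next animal at 5.27. Ddx21 was at 8.05 in replicate 1 at 0.1 mg/kg, with the next at 8.25. Nhp2 was at 8.58 in replicate 4 at 9.4 mg/kg, with the next at 8.07. Nop2 was at 7.00 in replicate 5 at 943 mg/kg, with the next at 6.83.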

How the results depend on the processing

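No member passed at 0.1, 0.94, 9.4 or 943 mg/kg or in the trend (0 in each) under any of the 9 other settings tried or with any 1 animal left out. The lowest adjusted p of a named member over all of these was 0.567, for Nob1 at 0.1 mg/kg. Over the settings the median member difference lay between 0.08 and 0.10 at 0.1 mg/kg, 0.04 and 0.06 at 0.94, 0.03 and 0.04 at 9.4, 0.15 and 0.18 at 94.3, and -0.03 and -0.0046 at 943 mg/kg. With 1 animal left out it lay between 0.07 and 0.13, 0.0066 and 0.07, 0.0065 and 0.06, 0.14 and 0.19, and -0.04 and 0.00079. The number of members above vehicle, an alternative added after seeing the data, then lay between 31 and 37, 23 and 38, 26 and 31, 42 and 43, and 15 and 22. The median correlation between members lay between 0.20 and 0.27. Every group holds the same replicate numbers, so the replicate block could not change the medians, only the errors. With the block, 0 members passed at each tested dose. Same-numbered samples of different groups had a median r of 0.0026 over 90 pairs, 18 of them over 0.1. Samples with different numbers had a median r of -0.0094 over 450 pairs, 62 of them over 0.1. These values do not decide whether the numbers pair animals. Without replicate 1 at 94.3 mg/kg the difference of Wdr12 was 0.42, and without vehicle replicate 6 it was 0.28. Dim probe sets such as Noc3l limit what small differences can be read.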
